A study of Ovis aries with 24 samples.

Results

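The genes described here are 7 cofactors and chaperones of the nuclear receptors: the coactivators NCOA1, NCOA2 and NCOA3, the corepressors NRIP1 and NCOR1, and the immunophilins FKBP4 and FKBP5. They were chosen by symbol, as the rows of the deposited count tables that carry these names, and each symbol had 1 row. The choice was made with earlier results of these data known. Shares called among the 7 and among all genes are therefore set side by side as a description, not as a test of an excess. They make up 7 of 27054 annotated features, and all 7 were among the 15134 features that passed the filter on low counts over the 24 libraries.

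Nuclear receptors such as the estrogen receptor switch genes on or off through proteins they recruit once hormone has bound. Coactivators of the NCOA (steroid receptor coactivator) family bring in histone acetyltransferases, whereas corepressors bring in histone deacetylases. NCOR1 binds chiefly to receptors without an activating ligand, and NRIP1 binds to receptors occupied by an agonist and dampens their activity. Before hormone binds, steroid receptors sit in a complex with the chaperone HSP90, in which FKBP4 favours hormone binding and transport to the nucleus, while FKBP5 lowers the hormone affinity of the glucocorticoid receptor and is itself a target of that receptor in many tissues.

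The study worked with primary pituitary cultures from ovariectomized ewes (Western white faced breed). Dispersed cells were infected after 24 h with an adenovirus that makes gonadotropes, the cells that secrete LH and FSH, express green fluorescent protein, and 3 days later received ethanol as vehicle or 10 nM estradiol-17β (E2) for 6 h. Sorted and unsorted cells, each with vehicle or E2, made up 4 groups of 6 libraries, numbered 1 to 6, and ovariectomy of the donor, culture on plastic and the viral step are given alike for all of them. The promoter in the virus, the number of ewes and whether unsorted cells also passed through the sorter are left unsaid in the labels. No label says that equal replicate numbers, or the 6 libraries of a group, come from the same or separate cultures, so p-values measure the spread between these libraries, which may be partly technical.

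Libraries numbered 1 to 3 held 4.19 to 6.19 M assigned reads and those numbered 4 to 6 held 19.2 to 37.0 M, 12 libraries in each set, so values within each set are given where they differ. Counts of the 7 genes ran from 210 reads for NCOA2 in one of the shallower libraries to 8674 reads for FKBP4 in one of the deeper ones. The sort was checked on 5 gonadotrope markers (CGA, LHB, FSHB, GNRHR and NR5A1), all of which were higher in sorted than unsorted vehicle cells, CGA by 2.74 ± 0.28 on the log2 scale. The summed level of these markers was 2467 to 5561 CPM (read counts scaled to a common library size) in sorted vehicle libraries and 286 to 1379 in unsorted ones, and that of 5 fibroblast and pericyte markers was 487 to 1214 against 3381 to 9404 CPM. Lactotrope markers (PRL and POU1F1) were not depleted, at 68378 to 176198 against 40211 to 93287 summed CPM. By the test described below, both were higher in sorted vehicle cells. So were 2 of 2 thyrotrope, 1 of 2 corticotrope and 1 of 2 somatotrope markers, and none of these markers was lower. The sorted cells were thus enriched in gonadotrope markers but also in markers of other hormone-secreting cells, and were not pure. In bulk RNA of this kind, fewer cells of a type and less RNA per cell cannot be told apart.

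In sorted cells, 6 h of E2 raised both corepressor genes and lowered NCOA2. NRIP1 rose 2.11-fold, NCOR1 rose 1.27-fold and NCOA2 fell to 0.749 of its vehicle level. A gene is called changed here when its Benjamini-Hochberg adjusted p in edgeR's quasi-likelihood test, over all genes tested, is under 0.05. By this test 3 of the 7 genes were called, against 1.37% of the 14334 genes tested. Since the 7 were chosen with earlier results of these data known, this contrast and the one below are not unbiased. With the replicate number added to the model as a block, 6 of 7 were called, 3 higher and 3 lower, against a background of 13.2% (7.03% higher and 6.2% lower), and each of those 6 calls was kept in all 6 blocked fits that left out 1 replicate number. NCOA3 was the exception in both fits. Vehicle and E2 libraries did not overlap for NRIP1, NCOR1 and NCOA2, which holds for 1.6% of all genes tested.

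NRIP1 (ENSOARG00000001166), known as an early estrogen-responsive gene in other estrogen target cells, stood at 58.1, 67.9 and 91.6 CPM (lowest, median and highest of 6) in sorted vehicle cells. In sorted E2 cells the corresponding levels were 97.3, 149 and 194 CPM. Every E2 library lay above every vehicle library. The means were 70.4 ± 12.7 and 145 ± 37.0 CPM (SD, n = 6), and the log2 fold change was 1.07 ± 0.18 (SE; adjusted p = 0.0058), or 1.04 ± 0.07 with the replicate block (adjusted p = 1.7e-07). Within same-numbered pairs, the E2 library was higher by between 0.74 (number 5) and 1.46 (number 3) on the log2 scale. With the block, replicates 1 to 3 gave 1.16 and replicates 4 to 6 gave 0.93, and without it the call held in all 12 fits that left out 1 library.

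NCOR1 (ENSOARG00000017147), the scaffold of a histone deacetylase complex, was the least variable of the 7 genes among sorted libraries relative to its mean. Its lowest, median and highest levels were 242, 246 and 266 CPM with vehicle and 296, 301 and 335 CPM with E2. The groups were separated by a gap, although the change was modest. NCOR1 rose by 0.35 ± 0.05 on the log2 scale (adjusted p = 0.0032; 5.8e-07 with the block), in 6 of 6 same-numbered pairs, by 0.26 to 0.45 per pair. Its call held in all 12 fits without 1 library.

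NCOA2 (ENSOARG00000003779), a coactivator of the estrogen and glucocorticoid receptors, ranged over 57.9, 67.7 and 75.5 CPM in sorted vehicle cells and 41.3, 51.7 and 55.4 CPM in sorted E2 cells. The 2 ranges came close but did not touch. NCOA2 fell by 0.42 ± 0.09 on the log2 scale (adjusted p = 0.043; 1.5e-05 with the block), and was lower with E2 in 6 of 6 pairs. Without the block its adjusted p sat close to the threshold: the call was lost in 10 of 12 fits that left out 1 library, with adjusted p up to 0.111, and was kept without sorted vehicle replicate 1 and without sorted E2 replicate 2.

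NCOA1 (ENSOARG00000018040), the founding member of the NCOA family, overlapped between treatments, at 150.5, 178 and 186 CPM with vehicle and 114, 142 and 172 CPM with E2. Its difference of -0.24 ± 0.10 did not pass without the block (adjusted p = 0.59). With the replicate block NCOA1 fell by 0.26 ± 0.04 (adjusted p = 0.00024), lower in 6 of 6 pairs. NCOA3 (ENSOARG00000009818), the family member often amplified in breast cancer, stood at 115, 136 and 143 CPM with vehicle and 109, 119 and 144 CPM with E2. The NCOA3 groups overlapped almost fully, and the difference was -0.07 ± 0.08 on the log2 scale (95% interval -0.24 to 0.10; adjusted p = 0.35 with the block).

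The FKBP pair differed in direction in sorted cells. FKBP4 (ENSOARG00000011357) stood at 235, 258 and 301 CPM with vehicle and 252, 298 and 326 CPM with E2. FKBP5 (ENSOARG00000012272) stood at 104, 119.6 and 155 CPM with vehicle and 84.3, 97.1 and 115 CPM with E2. Both genes overlapped between treatments across the 6 libraries. Without the block neither passed, with differences of 0.18 ± 0.09 for FKBP4 (adjusted p = 0.68) and -0.29 ± 0.13 for FKBP5 (adjusted p = 0.62). With the block FKBP4 rose by 0.19 ± 0.04 (adjusted p = 0.0013) and FKBP5 fell by 0.30 ± 0.05 (adjusted p = 0.00018), each in the same direction in 6 of 6 pairs. Across all genes tested, 6.22% were higher in every pair and 11.1% were lower in every pair.

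**Figure D1:**
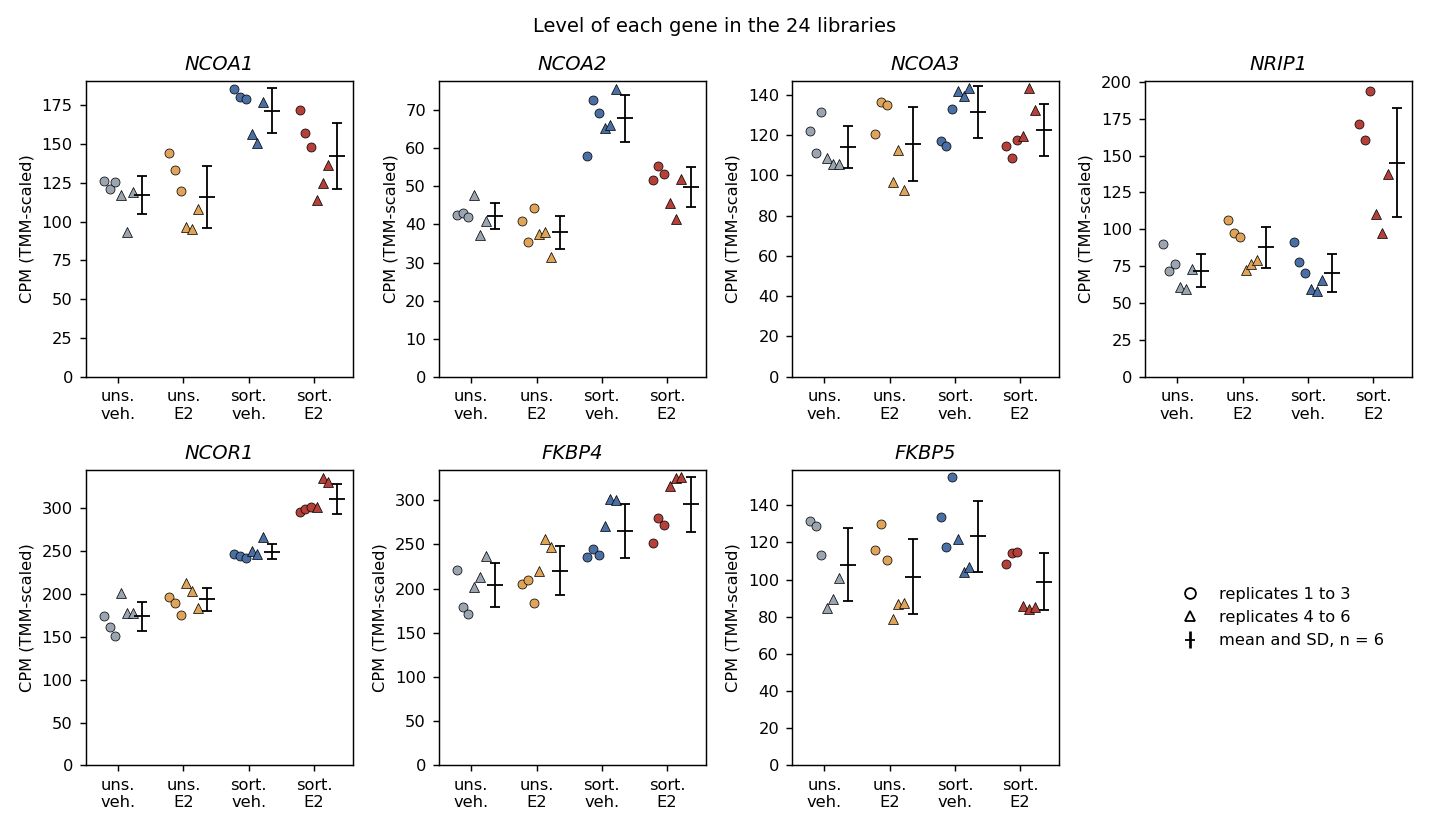
Level of each of the 7 genes in CPM (y axis, from 0) in the 4 groups (x axis), 1 point per library, circles for replicates 1 to 3 and triangles for replicates 4 to 6, with the mean and SD of 6 beside them. NRIP1 stands at 97.3 to 194 CPM in sorted E2 cells and at 58.1 to 91.6 CPM in sorted vehicle cells.

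Some markers of other states moved with E2 in the sorted cells. Of 2 dividing-cell markers tested 1 rose, with summed levels of 22.1 to 38.5 CPM with vehicle and 35.9 to 54.5 CPM with E2. Of 2 lactotrope markers 1 fell (68378 to 176198 against 57202 to 153179 summed CPM), as did 1 of 2 thyrotrope markers (253 to 1179 against 187 to 958 summed CPM), and no marker of these lists was at 0 in every library. With the block both thyrotrope markers fell and 1 of 2 somatotrope markers rose. A summed level covers both markers and need not follow the 1 that was called. The somatotrope sum ran over 9022 to 92729 CPM with vehicle and 8723 to 75280 CPM with E2. Of 5 gonadotrope markers 1 rose in both fits, and 1 fell with the block. The part of these markers in the changes of NRIP1, NCOR1 and NCOA2 was not tested. Of 5 fibroblast and pericyte markers, 0 were called with edgeR in either fit, at 487 to 1214 CPM with vehicle and 495 to 1482 CPM with E2.

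In unsorted cells, none of the 7 genes was called after E2 by edgeR without the block (0 at an unadjusted p under 0.05) or by DESeq2 (1 at an unadjusted p under 0.05), against 0.245% of 15083 genes by edgeR. With the replicate block, NRIP1 and NCOR1 rose, 2 of 7 genes against a background of 5.24% in either direction and 2.86% higher. Vehicle and E2 libraries overlapped for all 7 genes, as they did for all but 0.544% of genes tested. Markers of other cell types moved in this comparison too: with the block 1 of 2 lactotrope and 1 of 2 thyrotrope markers fell. The sums over both markers did not fall with them. From vehicle to E2, the median lactotrope sum went from 69892 to 79351 CPM (ranges 40211 to 93287 and 42286 to 99581). The median thyrotrope sum went from 266 to 288 CPM (ranges 124 to 343 and 129.7 to 381). With the block 1 of 2 somatotrope markers rose, while the sum over both had medians of 15620 CPM with vehicle and 15366 CPM with E2 (ranges 5619 to 52067 and 5316 to 60565). Of 5 gonadotrope markers 1 rose, in both fits, and 1 fell with the block. Their part in the changes of NRIP1 and NCOR1 was not tested.

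NRIP1 stood at 59.2, 72.2 and 90.0 CPM in unsorted vehicle cells and at 72.1, 87.0 and 106 CPM in unsorted E2 cells. The E2 library was higher in 6 of 6 same-numbered pairs, by 0.11 to 0.45 on the log2 scale, as was seen for 5.22% of genes. NRIP1 rose by 0.28 ± 0.05 with the block (adjusted p = 0.00087, and at most 0.0044 without any 1 replicate number). The estimate without the block was similar, 0.29 ± 0.14, but did not pass (adjusted p = 1.00). NCOR1 stood at 151, 176 and 200.4 CPM with vehicle and 175, 193 and 212 CPM with E2. NCOR1 was higher in 6 of 6 pairs and rose by 0.15 ± 0.04 with the block (adjusted p = 0.036), a call kept in 2 of the 6 blocked fits that left out 1 number (adjusted p up to 0.109). Without the block the NCOR1 difference had an adjusted p of 1.00.

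The 3 coactivator genes and the FKBP pair did not pass in unsorted cells in either fit. NCOA1 ranged over 93.6, 120.2 and 127 CPM with vehicle and 94.98, 114 and 144.5 CPM with E2, NCOA2 over 37.2, 42.3 and 47.7 against 31.5, 37.8 and 44.3 CPM, and NCOA3 over 105, 109.9 and 132 against 92.8, 117 and 136 CPM. The 95% interval of the E2 difference without the block was -0.30 to 0.26 for NCOA1, -0.38 to 0.06 for NCOA2 and -0.25 to 0.28 for NCOA3. FKBP4 was at 171, 208 and 237 CPM with vehicle and 184, 215 and 257 CPM with E2, with an interval of -0.10 to 0.32. FKBP5 was at 84.6, 107 and 132 CPM with vehicle and 78.9, 98.9 and 129.8 CPM with E2, with an interval of -0.44 to 0.26. With the block the NCOA2 difference was -0.18 ± 0.06 (unadjusted p = 0.011, adjusted p = 0.13), and it was called in 1 of the 6 blocked fits that left out 1 number, the one without number 5 (-0.24, adjusted p = 0.029). Blocked differences were 0.11 ± 0.05 for FKBP4 (adjusted p = 0.22), -0.10 ± 0.04 for FKBP5 (adjusted p = 0.28) and -0.04 ± 0.06 for NCOA1 (adjusted p = 0.81).

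Whether the E2 difference itself differed between sorted and unsorted cells was tested as an interaction over all 24 libraries. Without the block 0 of 7 genes passed by edgeR (2 at an unadjusted p under 0.05) or by DESeq2 (2 at an unadjusted p under 0.05), against 0.0264% of 15134 genes by edgeR. With the block NRIP1 was called, against 0.463% of genes. With the block 1 of 2 dividing-cell markers also had a larger E2 difference in sorted cells (22.1 to 38.5 against 35.9 to 54.5 summed CPM there, and 70.3 to 123 against 74.9 to 124 in unsorted cells), and its part in the NRIP1 difference was not tested. The E2 difference of NRIP1 was larger in sorted cells by 0.77 ± 0.10 on the log2 scale (adjusted p = 0.00050), and by 0.65 to 0.85 in the 6 blocked fits without 1 number (adjusted p from 0.0017 to 0.012). By replicate number, 1 to 6, the excess was 0.67, 0.59, 1.15, 0.65, 0.38 and 0.96. Without the block the estimate was 0.78 ± 0.22 (unadjusted p = 0.0019, adjusted p = 0.78).

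For NCOR1 the E2 difference was larger in sorted cells in 6 of 6 numbers, by 0.07 to 0.26, but the test did not pass (0.19 ± 0.07 with the block, adjusted p = 0.61). NCOA1, NCOA2 and FKBP5 had a lower E2 difference in sorted cells in 6 of 6 numbers. Their blocked estimates of -0.22 ± 0.09, -0.27 ± 0.12 and -0.21 ± 0.11 did not pass. The share of all genes with the same direction in 6 of 6 numbers was not taken for the interaction. How common such counts are is therefore not known. A difference between sorted and unsorted cells in the E2 response therefore passed its test for NRIP1, with the block, and for no other gene of the 7. In this test the block gave each replicate number a term shared by both preparations. Variation of a number within a preparation stayed in the error, so a test that did not pass does not show equal responses.

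**Figure D2:**
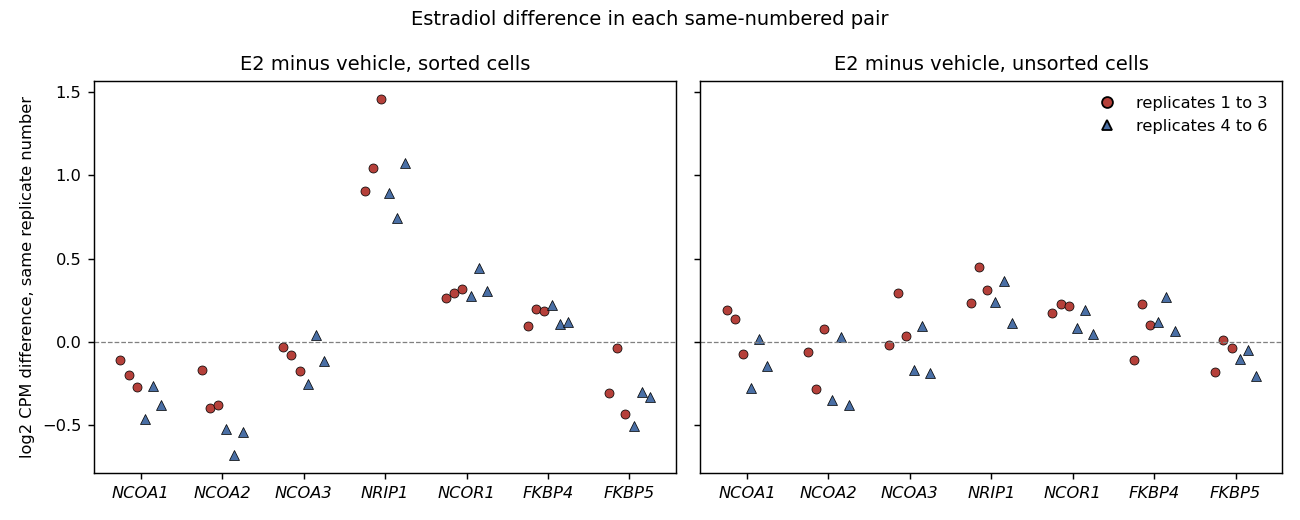
Difference in log2 CPM between the E2 and vehicle library of the same replicate number (y axis) for each of the 7 genes (x axis), in sorted cells (left) and unsorted cells (right), with 1 point per number. In sorted cells all 6 points lie above 0 for NRIP1, NCOR1 and FKBP4 and below 0 for NCOA1, NCOA2 and FKBP5, and NRIP1 runs from 0.74 to 1.46 there and from 0.11 to 0.45 in unsorted cells.

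Sorted cells were then compared with unsorted cells under vehicle, which asks how the gonadotrope-enriched fraction differs from the mixed culture. NCOA1, NCOA2, NCOR1 and FKBP4 were higher in sorted cells, and NRIP1 and FKBP5 did not pass in either direction. The 4 calls of 7, all higher, stand beside a background in which 50.2% of 14468 genes were called and 24.4% were called higher, so a call by itself is common in this comparison. Sorted and unsorted libraries did not overlap for NCOA1, NCOA2 and NCOR1, as for 27.7% of all genes. With the block 5 of 7 were called, against 63.6% of genes. All 4 calls without it held in all 12 fits without 1 library. Markers of gonadotropes, other hormone-secreting cells and fibroblasts moved with these differences, as given above, and their part in them was not tested.

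NCOA2 was higher in sorted vehicle cells by 0.70 ± 0.09 on the log2 scale (adjusted p = 2.7e-05), a 1.63-fold difference. NCOA1 was higher by 0.57 ± 0.10 (adjusted p = 0.00037) and NCOR1 by 0.54 ± 0.07 (adjusted p = 3.9e-05), and all 3 were higher in 6 of 6 same-numbered pairs, as 27.7% of genes were. FKBP4 was higher by 0.40 ± 0.09 (adjusted p = 0.0027), also in 6 of 6 pairs, although its sorted range of 235 to 301 CPM met the unsorted range of 171 to 237 CPM. FKBP5 differed by 0.21 ± 0.14 (adjusted p = 0.25; 0.055 with the block). NRIP1 differed by -0.01 ± 0.14 (95% interval -0.32 to 0.30), at 70.4 ± 12.7 against 71.8 ± 11.2 CPM (SD, n = 6).

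NCOA3 behaved differently in the 2 sets of libraries. In replicates 1 to 3 the sorted minus unsorted differences under vehicle were -0.06, 0.04 and 0.01, and in replicates 4 to 6 they were 0.39, 0.40 and 0.44. The 2 sets did not overlap. Over all 12 libraries NCOA3 differed by 0.22 ± 0.09 (adjusted p = 0.059 by edgeR and 0.032 by DESeq2, both without the block). With the block in edgeR it was higher by 0.23 ± 0.09 (adjusted p = 0.039). That blocked call was lost in the fits without number 4, 5 or 6 (adjusted p up to 0.154) and kept in the other 3. Without the block the call was made in 3 of 12 fits that left out 1 library, those without unsorted vehicle replicate 3, sorted vehicle replicate 1 or sorted vehicle replicate 2 (adjusted p from 0.021 to 0.135 over the 12). The same split appeared under E2, where the NCOA3 difference fitted with the block was -0.17 in replicates 1 to 3 and 0.43 in replicates 4 to 6. The sets differ in depth, and no label says what else separates them. In replicates 4 to 6, sorted libraries held 19.2 to 22.5 M reads and unsorted ones 32.1 to 37.0 M. In replicates 1 to 3 the ranges overlapped, at 4.19 to 6.19 M and 5.03 to 5.98 M. The part of depth in the NCOA3 split was not tested.

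Under E2, NCOR1, FKBP4, NRIP1 and NCOA2 were higher in sorted than unsorted cells, 4 of 7 genes, against 51.8% of 14545 genes called and 25.8% called higher. With the block 5 of 7 were called, against 65.7% of genes. NCOR1 was higher by 0.73 ± 0.07 (adjusted p = 3.4e-06), at 296 to 335 against 175 to 212 CPM, and was the 1 gene of the 7 whose groups did not overlap, as for 28.3% of all genes. NRIP1 was higher by 0.77 ± 0.17 (adjusted p = 0.0020), FKBP4 by 0.47 ± 0.10 (adjusted p = 0.0011) and NCOA2 by 0.44 ± 0.11 (adjusted p = 0.0039). For NRIP1 the groups overlapped across the sets of replicates but not within either set. Sorted E2 libraries stood at 160.3 to 194 CPM against 94.8 to 106 CPM in replicates 1 to 3. In replicates 4 to 6 they stood at 97.3 to 138 against 72.1 to 79.1 CPM. What separates the sets in NRIP1 level was not tested.

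NCOA1 differed by 0.34 ± 0.14 under E2 (adjusted p = 0.051 by edgeR and 0.049 by DESeq2, both without the block). With the block in edgeR it was higher by 0.34 ± 0.06 (adjusted p = 0.00041), in 6 of 6 pairs, as for 28.1% of genes. Without the block it passed in 4 of 12 fits without 1 library, those leaving out replicates 1 and 2 of unsorted E2 cells and replicates 4 and 5 of sorted E2 cells, each in turn (over the 12 fits the adjusted p ran from 0.030 to 0.128). NCOA3 and FKBP5 did not pass, at 0.13 ± 0.12 and 0.00 ± 0.15. This comparison and the E2 comparisons share libraries, as do the vehicle and E2 comparisons, so a low vehicle value of a gene enters more than 1 of them.

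**Figure D3:**
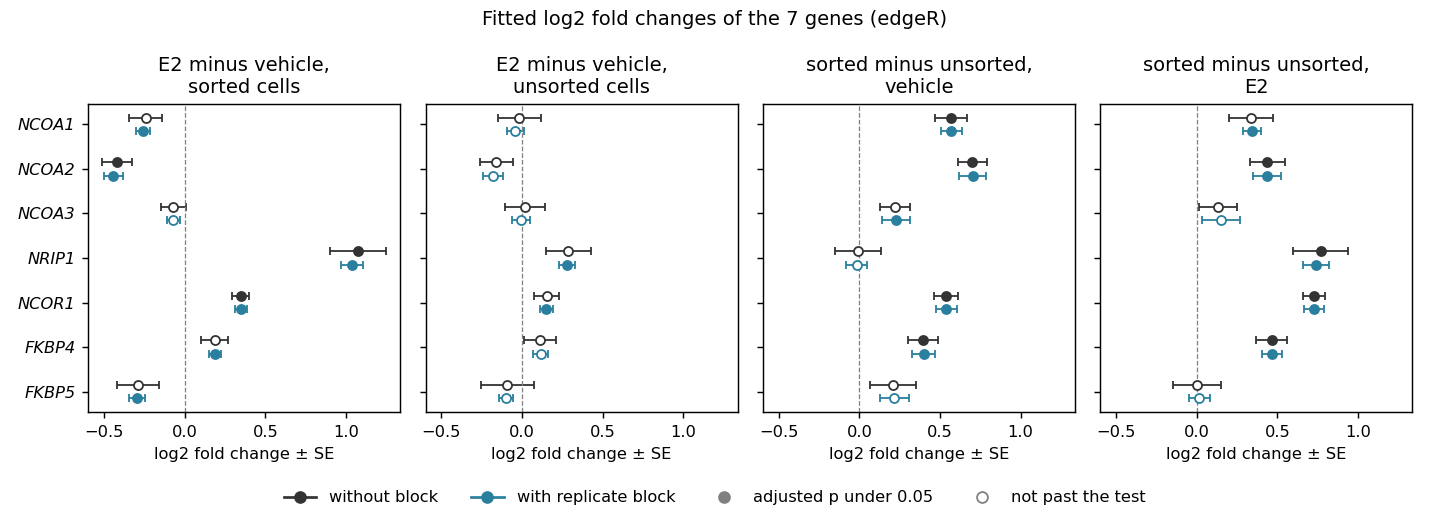
Fitted log2 fold change with its SE (x axis) of each of the 7 genes (y axis) in 4 comparisons, without the replicate block (dark) and with it (blue), filled where the adjusted p is under 0.05. NRIP1 lies at 1.07 for E2 in sorted cells and at -0.01 for sorted minus unsorted under vehicle.

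Ordered by mean level, the genes took different courses through the 4 groups. NRIP1 was highest in sorted E2 cells (145 ± 37.0 CPM), followed by unsorted E2 (87.7 ± 13.6), unsorted vehicle (71.8 ± 11.2) and sorted vehicle cells (70.4 ± 12.7; SD, n = 6). The last pair did not differ beyond the spread. NCOR1 ran from sorted E2 (310.4 ± 17.5 CPM) through sorted vehicle (249 ± 8.94) and unsorted E2 (193 ± 13.4) to unsorted vehicle cells (174 ± 16.8), with every gap between neighbours larger than the larger of their SDs. FKBP4 followed the same order of groups, from 295 ± 31.5 through 265 ± 30.4 and 220.4 ± 27.2 to 204 ± 25.03 CPM, but among its neighbours the gap exceeded the SD just between sorted vehicle and unsorted E2 cells.

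NCOA1 and NCOA2 were highest in sorted vehicle cells, at 172 ± 14.5 and 67.9 ± 6.20 CPM, and next in sorted E2 cells, at 142 ± 21.5 and 49.8 ± 5.29 CPM. Unsorted vehicle and unsorted E2 cells followed, at 117 ± 12.1 and 116 ± 20.03 CPM for NCOA1 and 42.2 ± 3.41 and 37.9 ± 4.36 CPM for NCOA2, and these last neighbours did not differ beyond the spread for either gene. NCOA3 ran from 132 ± 12.8 CPM in sorted vehicle cells to 114 ± 10.6 CPM in unsorted vehicle cells, and FKBP5 from 123 ± 19.1 CPM in sorted vehicle cells to 98.9 ± 15.3 CPM in sorted E2 cells. For NCOA3 and FKBP5 no neighbouring groups differed beyond the spread.

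Part of that spread followed the depth sets. FKBP5 was lower in replicates 4 to 6 in each group, for example 84.3 to 85.9 CPM against 108 to 115 CPM in replicates 1 to 3 of sorted E2 cells. FKBP4 was higher there, at 316 to 326 against 252 to 280.0 CPM in sorted E2 cells. NRIP1 in sorted vehicle cells stood at 58.1 to 65.4 CPM in replicates 4 to 6 and 70.4 to 91.6 CPM in replicates 1 to 3. Each group holds 3 libraries of each set, so the sets are balanced across the comparisons above. Depth itself was not balanced for the sort in replicates 4 to 6, where every sorted library was shallower than every unsorted one.

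Ratios of reads within a library do not depend on scaling between libraries, although their absolute value depends on transcript length. NRIP1 gave 0.190 ± 0.0365 reads per read of NCOA1, NCOA2 and NCOA3 together in sorted vehicle cells and 0.458 ± 0.102 in sorted E2 cells (SD, n = 6), with ranges of 0.163 to 0.254 and 0.314 to 0.607. In unsorted cells the NRIP1 ratio was 0.262 ± 0.0286 with vehicle and 0.325 ± 0.0152 with E2. Every E2 library lay above every vehicle library in both preparations, but in unsorted cells the groups almost touched. Their ranges there were 0.223 to 0.309 with vehicle and 0.311 to 0.347 with E2. How often ratios of other genes are apart in this way was not taken. NCOR1 gave 0.634 to 0.691 reads per NCOA read in sorted vehicle cells and 0.873 to 1.08 in sorted E2 cells, again without overlap. In unsorted cells the NCOR1 ranges were 0.504 to 0.754 and 0.587 to 0.919, which overlapped, although the E2 library was higher in 6 of 6 same-numbered pairs. FKBP4 reads per FKBP5 read were 2.22 ± 0.549 in sorted vehicle and 3.08 ± 0.777 in sorted E2 cells, and these ranges overlapped too. The FKBP4 to FKBP5 ratio in sorted cells was nonetheless higher with E2 in 6 of 6 pairs. Within each depth set the sorted groups were apart, at 1.53 to 2.08 against 2.32 to 2.44 in replicates 1 to 3 and 2.23 to 2.90 against 3.68 to 3.85 in replicates 4 to 6. In unsorted cells this ratio was also higher with E2 in 6 of 6 pairs, at 1.95 ± 0.472 with vehicle and 2.27 ± 0.649 with E2. There the groups overlapped in replicates 1 to 3 (1.39 to 1.68 against 1.62 to 1.77) and were apart in replicates 4 to 6 (2.35 to 2.39 against 2.79 to 2.96).

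**Figure D4:**
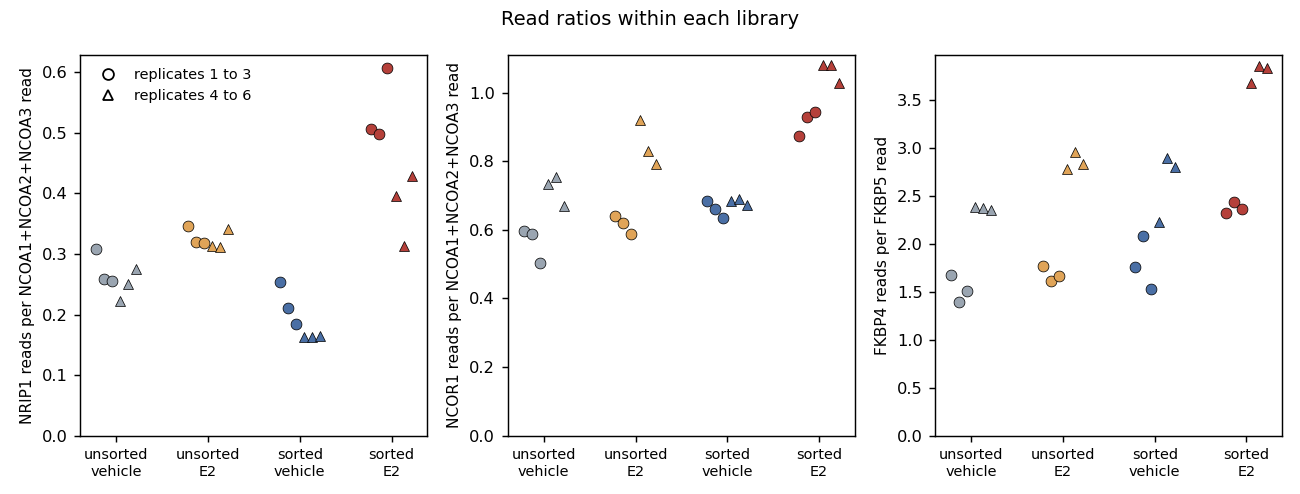
Reads of NRIP1 (left) and NCOR1 (middle) per read of NCOA1, NCOA2 and NCOA3 together, and reads of FKBP4 per read of FKBP5 (right), on linear y axes from 0, with 1 point per library in the 4 groups (x axis). NRIP1 runs from 0.163 to 0.254 in sorted vehicle cells and from 0.314 to 0.607 in sorted E2 cells.

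Other coregulators were read from lists of related genes. Of 24 other corepressor and deacetylase genes tested, 1 rose with E2 in sorted cells and 0 fell, or 3 and 2 with the block. Of all genes 1.37% were called, or 13.2% with the block. The median log2 difference of the 24 was -0.04 against -0.00 for all genes. The gene that rose was HDAC4, a deacetylase that NCOR1 can bind. HDAC4 stood at 8.79, 10.3 and 14.6 CPM with vehicle and 13.6, 22.4 and 30.0 CPM with E2, with overlapping groups, and rose by 1.00 ± 0.20 (adjusted p = 0.026; 5.5e-08 with the block). It kept its call in 4 of 12 fits without 1 library, those without sorted vehicle replicate 5 or any of sorted E2 replicates 1, 2 and 3, and its adjusted p otherwise reached 0.078. With the block, BCOR and MTA2 rose as well and TBL1XR1 and HDAC9 fell.

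In unsorted cells 0 of these 24 were called by edgeR without the block (0 at an unadjusted p under 0.05) or by DESeq2. With the block HDAC4 rose there by 0.42 ± 0.09 (adjusted p = 0.0074), the 1 call of the 24, against 5.24% of all genes. The difference in E2 response between preparations did not pass for HDAC4 (adjusted p = 0.45 with the block). Under vehicle, 9 of the 24 were higher and 6 lower in sorted cells (median 0.16 against 0.02 for all genes). Of all genes 24.4% were called higher there and 50.2% in either direction. The corepressor scaffold gene SIN3A was higher by 0.58 ± 0.08, and PHB, a prohibitin gene with corepressor and mitochondrial roles, was lower, at -1.10 ± 0.10.

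Of 28 other coactivator genes tested in sorted cells, 0 were called with E2 by edgeR without the block (3 at an unadjusted p under 0.05) and 1 by DESeq2. Their median difference without the block was 0.03. With the block 2 rose and 2 fell, against 13.2% of all genes called. PPARGC1B, a coactivator of metabolic genes, had a difference of 0.80 ± 0.19 (adjusted p = 0.061), and with the block it rose by 0.83 ± 0.13 (adjusted p = 0.00013), at 3.08 ± 0.409 against 5.24 ± 1.32 CPM (SD, n = 6). With the block CITED2 and SMARCA2 fell, by 0.59 ± 0.11 and 0.28 ± 0.05, and DDX17 rose by 0.15. Under vehicle 14 of the 28 were higher and 5 lower in sorted cells (median 0.28). Of all genes 24.4% were called higher and 50.2% in either direction. NCOA7, KAT5 and DDX17 had the smallest p among them and were higher by 0.70 ± 0.09, 0.67 ± 0.09 and 0.95 ± 0.14.

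Among 12 receptor genes tested, 0 were called with E2 in sorted cells by edgeR without the block (4 at an unadjusted p under 0.05). DESeq2 called 1 higher and 1 lower. With the block 2 rose and 2 fell, against 13.2% of all genes called. ESR1, which encodes estrogen receptor alpha, had a difference of -0.42 ± 0.10 (adjusted p = 0.069), and with the block it fell by 0.45 ± 0.06 (adjusted p = 3.7e-05). With the block ESR1 also fell in unsorted cells, by 0.67 ± 0.07 (adjusted p = 1.8e-06), but the difference between preparations did not pass (adjusted p = 1.00). NR3C1, which encodes the glucocorticoid receptor, stood at 118, 124 and 155 CPM in sorted vehicle and 141, 166 and 169.8 CPM in sorted E2 cells. With the block NR3C1 rose by 0.35 ± 0.05 (adjusted p = 2.2e-05), against an adjusted p of 0.053 without it. Both receptor genes were higher in sorted than unsorted vehicle cells, ESR1 by 0.71 ± 0.15 and NR3C1 by 0.49 ± 0.10. Of the 12 receptor genes 5 were called higher there and 1 lower. Of all genes 24.4% were called higher and 50.2% in either direction, so such calls are common.

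The chaperone partners of the FKBP proteins were read in the same way. Of 16 HSP90 machinery genes tested in sorted cells, 0 were called by edgeR without the block (0 at an unadjusted p under 0.05) or by DESeq2, against 1.37% of all genes by edgeR. With the block 1 of 16 was called, against 13.2% of all genes: HSPA8 rose by 0.20 ± 0.03. Of 11 other FKBP genes, 0 were called by edgeR in either fit (0 and 1 at an unadjusted p under 0.05) or by DESeq2. FKBP4 and FKBP5 did pass with the block, but they were chosen with earlier results of these data known. With 13.2% of all genes called in that fit, few calls among 11 genes would be usual. Under vehicle, 5 of the 16 HSP90 machinery genes were lower in sorted cells and 0 were higher. Of all 14468 genes tested, 3738 were called lower and 3529 higher, so such calls are common here. BAG1 (-0.92 ± 0.08), CDC37 (-0.50 ± 0.09) and HSPA8 (-0.56 ± 0.11) were among the 5, and FKBP4 was higher. Of the 11 other FKBP genes 2 were higher and 3 lower. FKBP10, FKBP14 and FKBP9, which fold secreted proteins such as collagens, were lower, FKBP10 at 14.2 to 23.1 against 84.1 to 161 CPM (-2.65 ± 0.19), in the same direction as the fibroblast and pericyte markers. The part of fibroblasts in this difference was not tested.

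FKBP5 is a glucocorticoid receptor target, and 13 other genes known to be induced by glucocorticoids were tested beside it. In sorted cells 0 were called with E2 by edgeR without the block, against 1.37% of all genes. At an unadjusted p under 0.05 there were 8, against 1024 of all 14334 genes. DESeq2 called 1 higher and 2 lower. With the block 3 rose and 6 fell (median -0.07 in that fit against -0.00 for all genes), against 7.03% of all genes higher and 6.2% lower. PDK4 fell by 0.70 ± 0.04 (adjusted p = 6.4e-10) and PER1 by 0.44 ± 0.05 (adjusted p = 3.0e-06), the direction of FKBP5. TAT and SGK1 rose, by 1.32 ± 0.22 and 0.41, against that direction. TAT lay close to the filter on low counts: for the sort under vehicle it passed that filter in 6 of 12 fits without 1 library. Its values here and in unsorted cells are to be read with that limit. PDK4 was the 1 gene of the list whose E2 response differed between preparations, by -0.80 ± 0.11 with the block (adjusted p = 0.0013). In unsorted cells the blocked fit called 2 of the 13, TAT and MAOA, both higher with E2, against 5.24% of all genes called.

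**Figure D5:**
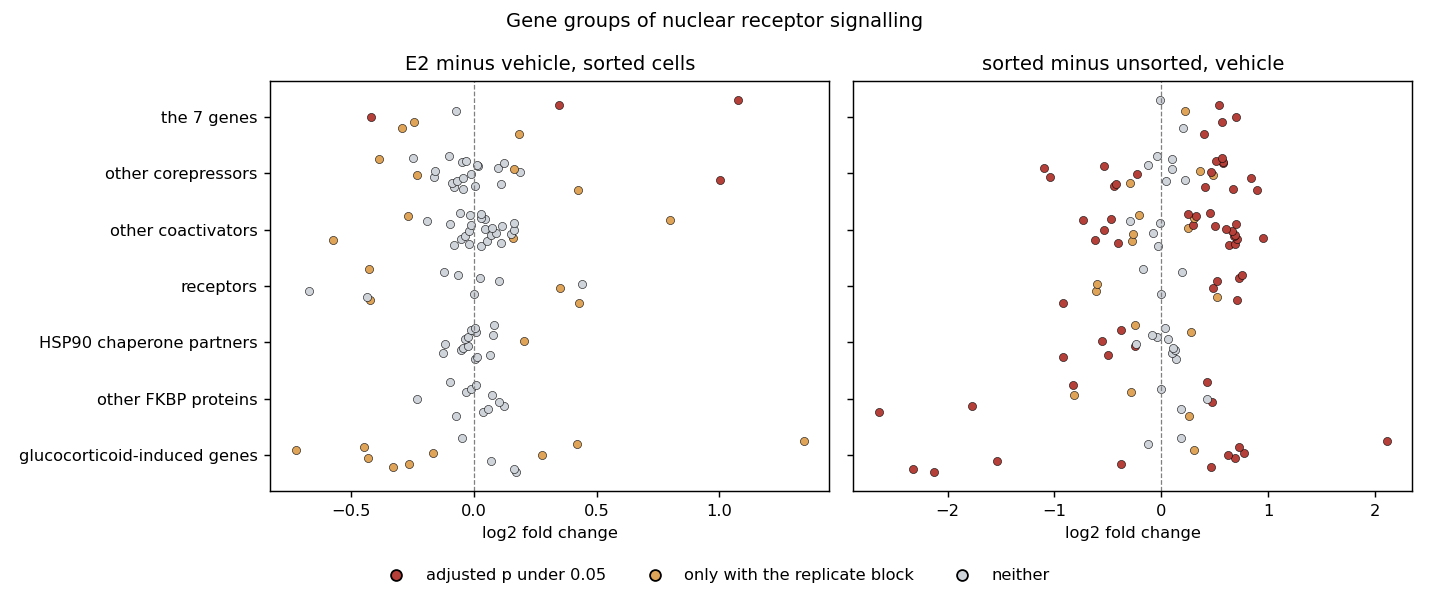
Log2 fold changes (x axis) of the 7 genes and of each tested gene in 6 related lists (y axis), for E2 in sorted cells (left) and sorted minus unsorted cells under vehicle (right), red where the test passed without the block and yellow where it passed with the block alone. Of the other corepressors, HDAC4 at 1.00 is the red point for E2.

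The course of each gene over the 24 libraries was compared with that of 11640 named genes by Pearson's r of log2 CPM, as a description with no test, since libraries of 1 group and depth set move together. The genes most like NRIP1 were CHD9 (r = 0.928), DNMBP (0.889) and PIAS2 (0.866). For NCOR1 they were KCNN2 (0.954), PTCH1 (0.952) and SYNRG (0.944). RHOT1, MGAT4A and SOS1 were most like NCOA1 (0.955, 0.950 and 0.943), and FAM13C and JMY were among those most like NCOA2 (0.925 and 0.920). NCOA3 had lower values, with PIK3C2A at 0.864, WASL at 0.832 and PTP4A2 at 0.827. FKBP4 was followed by TUBA8 (0.940), APBB1 (0.919) and SEC11C (0.915), and FKBP5 by CGGBP1 (0.890), ZC2HC1A (0.883) and CEP170 (0.873). Among the 7 genes, NCOR1 and FKBP4 ran together (r = 0.867), as did NCOA1 and NCOA2 (0.826), while FKBP4 and FKBP5 did not (-0.31).

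In the authors' deposited table for E2 in sorted cells, NRIP1 has a log2 fold change of 1.09 and a false discovery rate of 2.15e-06. NCOR1 and NCOA2 have 0.36 and -0.40 there, with false discovery rates of 0.124 and 0.273 in the authors' deposited table, so NRIP1 is the 1 gene of the 7 under 0.05. The authors' deposited table for unsorted cells has a false discovery rate of 1 for each of the 7. In the authors' deposited table for vehicle, turned here to sorted minus unsorted, NCOA2 (0.69), NCOA1 (0.55), NCOR1 (0.52) and FKBP4 (0.38) are under 0.05, FKBP4 at 0.0151.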

How the data were processed

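Each deposited count is a whole number of reads for 1 feature in 1 library, made with featureCounts 1.5.1 per the submitters' processing notes. Aligner, build and strand setting: not given in the sources used here; reads of overlapping antisense genes therefore cannot be separated, and coordinates are not printed. The 12 vehicle libraries stand in 2 tables and 0 values differed between the copies. Per the file headers, the authors' edgeR tables hold log2 fold changes, log2 mean CPM, p-values and false discovery rates, and a signed fold change that the authors' vehicle table gives as a score was not used. How their edgeR was run (version, filter, test) is left unsaid.

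Counts were fitted with edgeR 4.0.16 (R 4.3.3): TMM normalization, filterByExpr (minimum count 10) on the groups compared, robust quasi-likelihood fits, 2-sided tests and Benjamini-Hochberg adjustment over all genes tested. CPM values are TMM-scaled over 24 libraries. Correlations used log2 CPM with a prior count of 2, and differences between same-numbered libraries used log2 of CPM without a prior count. SE is the log2 fold change divided by the root of F. The interaction used all 24 libraries. DESeq2 1.42.0 and the other alternatives stand in the closing section. Scripts were tested on simulated data. Intervals are 95%, from the t distribution with each gene's total degrees of freedom in the quasi-likelihood fit.

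Same-numbered libraries deviated together: the correlation of their deviations from the group means was 0.29 to 0.52 for the sort under vehicle, 0.72 to 0.88 for E2 in sorted cells, 0.58 to 0.84 for E2 in unsorted cells and 0.32 to 0.53 for the sort under E2, and each library correlated best with its own number in 6 of 6 cases. The numbers come from the sample titles and were taken to pair the libraries, so blocked values are given where they change a call. The 7 genes and the lists were chosen with earlier results of these data known. Genes named from a list come from the 3 with the smallest p in a comparison, plus ESR1; PDK4, SGK1, MTA2, HDAC9 and, for E2, DDX17 fall outside this rule and were named after their values in the blocked fit were seen. The 3 genes most like each of the 7 were taken by the highest r. Of these and of the corepressor list, 1 gene each is not reported here, and the list is counted without it.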

Additional observations from a re-analysis of the deposited data

Results flagged for a closer look

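For NRIP1, the E2 difference was larger in sorted than in unsorted cells by 0.77 on the log2 scale in the test of the difference itself with the replicate block; without the block the same test did not pass.

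In unsorted vehicle cells, NCOA1 in replicate 5 stood at 93.6 CPM, far below the other 5 libraries of its group relative to their range. In sorted vehicle cells, NCOR1 in replicate 6 stood at 266 CPM, far above the other 5. Over the 28 groups of 6 values examined in this way, chance alone flags about 1 in 20. Every call made for NCOA1 under vehicle and for NCOR1 with E2 in sorted cells was kept without these libraries.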

How the results depend on the processing

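Genes called for E2 in sorted cells numbered 196, against 401 by DESeq2, 1896 with the replicate block and 125 to 208 without 1 library. Fits of replicates 1 to 3 and of replicates 4 to 6 also carried the block, so their counts of 563 and 1277 stand beside the 1896. For E2 in unsorted cells 37 were called, against 124 by DESeq2, 73 with all 24 libraries in 1 fit, 790 with the block (67 and 730 in the 2 sets, with the block) and 11 to 48 without 1 library. For the difference between these responses 4 were called, against 22 by DESeq2, 0 with no low-count filter, 70 with the block (2 and 47 in the sets, with the block) and 0 to 4 without 1 library. Of the 7 genes, 3 were called for E2 in sorted cells, against 6 with the block (4 and 5 in the sets, with the block) and 2 to 3 without 1 library. For E2 in unsorted cells 0 became 2 with the block (0 and 1 in the sets, with the block), and for the difference 0 became 1 with the block (1 in each set, with the block). For the sort, 4 of the 7 were called under vehicle and 4 under E2, against 5 in each by DESeq2. NCOA2 for E2 in sorted cells was not called with library size only or with no low-count filter (adjusted p = 0.11 and 0.053). The cause of these shifts was not tested.

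Small differences that had not passed changed sign. With the block, NCOA3 for E2 in unsorted cells was -0.0059 (-0.078 in replicates 4 to 6). In replicates 1 to 3, NRIP1 for the sort under vehicle was 0.015, NCOA1 for E2 in unsorted cells 0.080, and NCOA3 and FKBP5 for the sort under E2 -0.17 and -0.044. FKBP4 for the difference was -0.0082 in replicates 4 to 6, and FKBP5 for the sort under E2 was -0.0079 with no low-count filter. Without 1 library, NRIP1 for the sort under vehicle ran from -0.10 to 0.057, NCOA1 and NCOA3 for E2 in unsorted cells from -0.085 to 0.042 and from -0.037 to 0.086, and FKBP5 for the sort under E2 from -0.078 to 0.090. In blocked fits without 1 number the same 4 ran from -0.044 to 0.0092, -0.076 to 0.018, -0.048 to 0.038 and -0.037 to 0.052. These blocked fits were chosen after seeing the data. Of 60 list genes called for the sort under vehicle and 55 under E2, 52 and 49 were called in every fit without 1 library.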
